A study of Mus musculus with 9 samples.

Results

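The genes described here encode mitochondrial carriers: the members of solute carrier family 25, with Mpc1, Mtch1 and Mtch2. They were taken from the deposited array table as each probe set with a single gene symbol starting with Slc25a, plus the pyruvate carrier subunit Mpc1 and the homologs Mtch1 and Mtch2. This gave 47 of 17731 genes, each read by 1 probe set; Mpc2 was not analysed here. RNA of 9 samples was measured on Affymetrix mouse arrays, in 3 groups of 3. All groups were bone marrow cells of strain C57BL6 made immortal by HoxA9, carrying a retroviral vector, transplanted into irradiated syngenic mice and recovered 4 weeks later by sorting GFP positive cells from the marrow. The vector was an empty one with EGFP in CTL, pSF91-IDH1wt-IRES-EGFP in IDH1wt and pSF91-IDH1mut-IRES-GFP in IDH1mut. The mutation, the species of the insert, the age of the mice and whether a replicate was a mouse, a pool or a repeat are not given in the sources used here, so p-values measure only the spread between these samples, which may be technical. Vector integration and founder clones were not analysed here.

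Carriers of this family are small proteins, nearly all of the mitochondrial inner membrane, that exchange metabolites between cytosol and matrix. They move ADP, ATP and phosphate for respiration, carboxylates and amino acids for the citric acid cycle and its shuttles, and iron, nucleotides and cofactors for synthesis in the matrix. In marrow they are best known from red cell precursors, where iron and glycine must enter the matrix for heme synthesis. IDH1, the cytosolic isocitrate dehydrogenase, makes 2-oxoglutarate from isocitrate; Slc25a1 carries citrate and isocitrate, and Slc25a11 carries 2-oxoglutarate, across the inner membrane.

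Promoters of 4 carrier genes that changed are shown. Slc25a38 and Slc25a33 had the largest rises in IDH1mut against CTL among members with a promoter entry. Slc25a4 and Slc25a5 were chosen by role, as the ADP/ATP carriers that fell. The largest fall against CTL was that of Slc25a29 (-0.67), whose promoter is not shown. Each run is the 250 bases before the gene's start, 5′ to 3′ on the gene's strand (RefSeq, GRCm38.p6). Capitals mark matches to the motifs named after them.
Slc25a38 (chr9:120110132-120110381, plus strand): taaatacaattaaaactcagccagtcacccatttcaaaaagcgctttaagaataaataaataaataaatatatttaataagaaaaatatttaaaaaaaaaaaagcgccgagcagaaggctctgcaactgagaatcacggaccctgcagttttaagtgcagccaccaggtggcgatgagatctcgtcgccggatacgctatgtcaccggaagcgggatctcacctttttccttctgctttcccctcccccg
Slc25a33 (chr4:149774268-149774517, minus strand): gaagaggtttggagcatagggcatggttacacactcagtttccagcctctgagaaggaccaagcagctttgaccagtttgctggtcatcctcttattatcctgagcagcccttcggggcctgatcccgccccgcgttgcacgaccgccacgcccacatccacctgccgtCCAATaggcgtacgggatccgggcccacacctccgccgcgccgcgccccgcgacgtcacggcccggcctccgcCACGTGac
Slc25a4 (chr8:46211063-46211312, minus strand): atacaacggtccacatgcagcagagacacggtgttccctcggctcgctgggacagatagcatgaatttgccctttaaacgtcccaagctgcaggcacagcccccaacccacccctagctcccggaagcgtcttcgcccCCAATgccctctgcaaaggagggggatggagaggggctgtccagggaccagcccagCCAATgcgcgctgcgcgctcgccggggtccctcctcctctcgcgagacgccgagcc
Slc25a5 (chrX:36795347-36795596, plus strand): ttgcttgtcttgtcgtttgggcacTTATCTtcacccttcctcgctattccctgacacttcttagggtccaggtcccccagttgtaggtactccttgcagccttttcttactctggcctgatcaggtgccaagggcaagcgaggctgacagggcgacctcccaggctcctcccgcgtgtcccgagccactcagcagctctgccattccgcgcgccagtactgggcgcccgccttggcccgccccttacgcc
The motifs, searched on both strands, were the E-box CACGTG, the GATA site AGATAA, the ETS site CCGGAAGT, the CCAAT box CCAAT and the NRF1 palindrome; none of these strings lies inside another. Slc25a33 held a CCAAT box 81 bases and an E-box 8 bases before its start. Slc25a4 held CCAAT boxes at 112 and 56 bases, Slc25a5 a GATA site on the other strand at 226 bases, and Slc25a38 no match in this window. Promoter entries were found for 37 of the 47 members, and none for Slc25a37. In windows of 300 bases, which add 50 bases after the start, an E-box was present for 7 of the 37 (18.9%), against 8.09% of all genes and 7.15% of all promoters. A CCAAT box was present for 19 of the 37 (51.4%), against 41.1% of all genes and 37.4% of all promoters. The GATA site was found for 3 of the 37 (8.11%), against 12.7% of all genes and 11.2% of all promoters. The ETS site was found for 2 of the 37 (5.41%), against 4.31% of all genes and 3.89% of all promoters, and the NRF1 palindrome for 0 of the 37, against 1.07% of all genes. These shares are descriptions and were not tested.

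In IDH1mut against CTL 12 of the 47 carriers changed (25.5%), 7 up and 5 down, where 20.7% of all genes did (10.1% up, 10.6% down), so the share of carriers was near the background. The iron importers Slc25a37 and Slc25a28, the glycine importer Slc25a38, the pyrimidine nucleotide carrier Slc25a33, the glutathione carrier Slc25a40, the ATP-Mg carrier Slc25a24 and the phosphate carrier Slc25a3 rose. The ADP/ATP carriers Slc25a4 and Slc25a5, the basic amino acid carrier Slc25a29, the peroxisomal carrier Slc25a17 and Slc25a53, of no assigned substrate, fell. Here a gene rose, fell or changed when its adjusted p was under 0.05 (limma on all 9 arrays, two-sided, Benjamini-Hochberg over 17731 genes). Levels are log2 values of a probe set and cannot be set against those of another gene; changes are log2 differences between group means ± moderated standard error (SE), n = 3 against 3. The median change of the carriers was -0.04, that of all genes -0.04, and the median size without sign was 0.19 against 0.17. No carrier changed as much as 2-fold.

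In IDH1wt against CTL 0 of the 47 changed by limma, where 2.33% of all genes did (1.62% up, 0.711% down). At an unadjusted p under 0.05 there were 6, which is 12.8% of carriers against 17% of all genes: Mpc1, Mtch2, Slc25a12, Slc25a20, Slc25a29 and Slc25a47. The probe set of Mtch2 read low (mean 3.18 over 9 arrays, below the median gene at 4.94), and whether it reads the main transcript was not tested. In IDH1mut against IDH1wt 10 carriers changed (21.3%, with 13.3% of all genes, 6.54% up and 6.78% down). Slc25a33, Slc25a24, Slc25a37, Slc25a38 and Slc25a3 rose, and Slc25a4, Slc25a30, Slc25a53, Slc25a13 and Slc25a1 fell. This count was 5 when IDH1wt replicate 1, IDH1mut replicate 2 or IDH1mut replicate 3 was left out, and 6 when IDH1wt replicate 2 was. The 3 comparisons share arrays and are not independent.

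**Figure D1:**
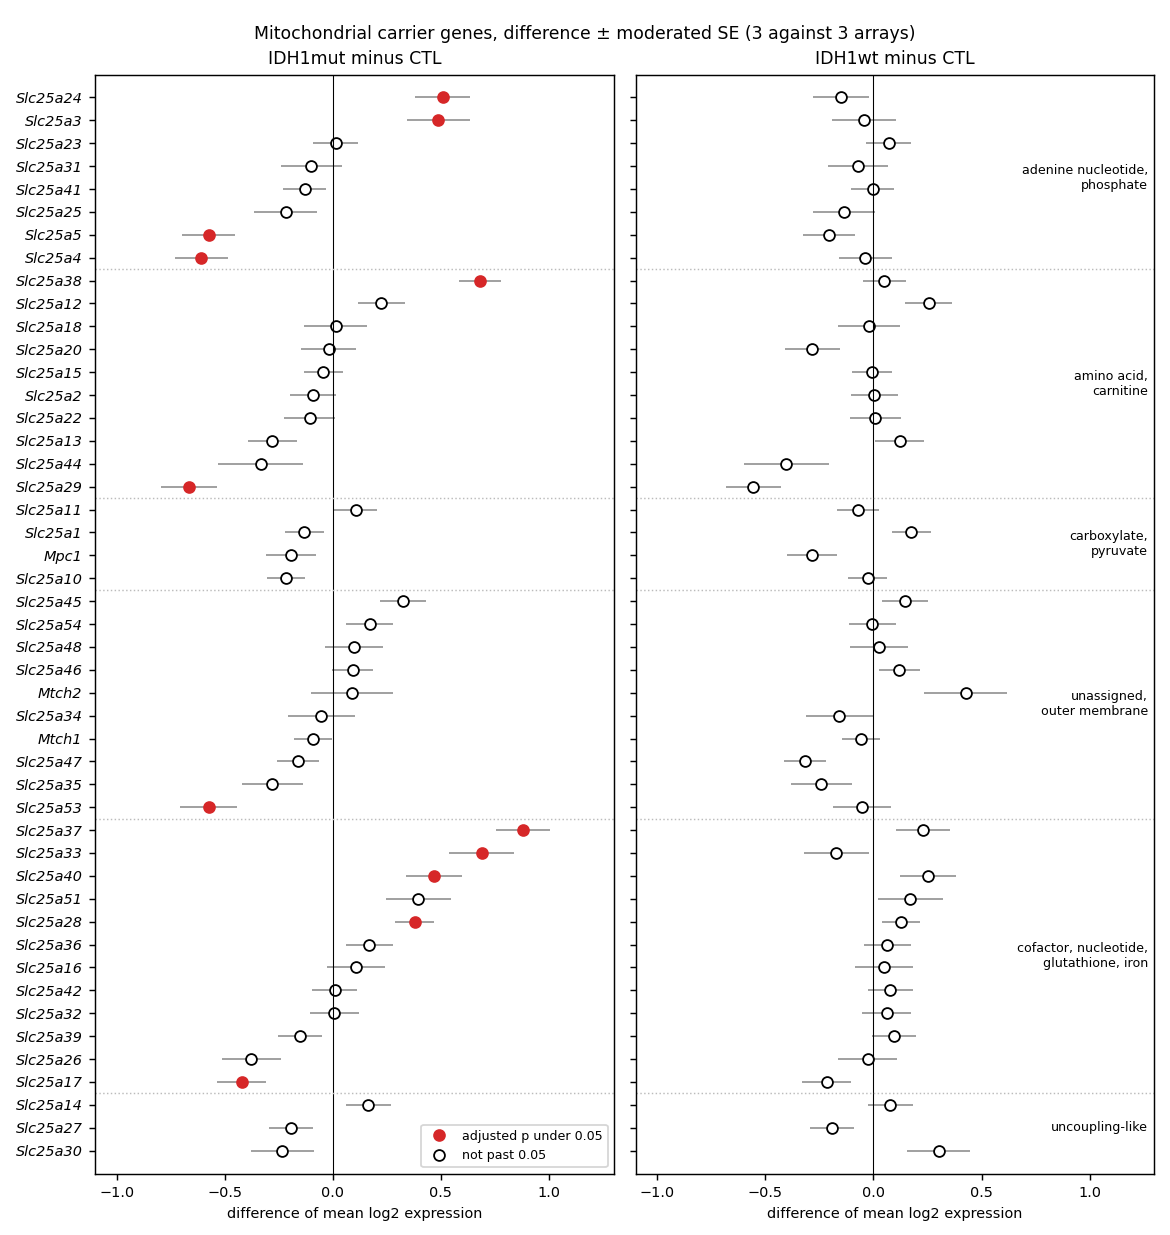
Change in log2 expression (x axis) of each of the 47 carriers, IDH1mut minus CTL on the left and IDH1wt minus CTL on the right, with bars of 1 SE, ordered by role; filled points have an adjusted p under 0.05. The left panel has 12 filled points, from -0.67 (Slc25a29) to 0.88 (Slc25a37), and the right panel has 0.

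The arrays of IDH1mut and CTL were fully separated for 22 carriers (46.8%), where 37.8% of all genes were. In IDH1wt against CTL it was 10 carriers (21.3%, with 23.6% of all genes), and in IDH1mut against IDH1wt 17 (36.2%, with 29.5%). Of the 22, 10 had not passed the test: Slc25a1, Slc25a10, Slc25a13, Slc25a26, Slc25a27, Slc25a36, Slc25a41, Slc25a44, Slc25a45 and Slc25a51.

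Among the 12 carriers of cofactors, nucleotides, glutathione and iron, 4 rose and 1 fell in IDH1mut against CTL, with a median change of 0.14. Slc25a37 encodes mitoferrin-1, which brings iron into the mitochondria of red cell precursors. It read 8.76, 8.75 and 8.72 in CTL, 8.85, 9.15 and 8.92 in IDH1wt, and 9.41, 9.60 and 9.86 in IDH1mut. Each IDH1mut array lay above each IDH1wt array, and each of those above each CTL array. The gene rose 1.84-fold over CTL (0.88 ± 0.12; adjusted p = 0.000626, limma) and 1.57-fold over IDH1wt (0.65 ± 0.12; adjusted p = 0.00603). The difference of 0.23 ± 0.12 between IDH1wt and CTL did not pass (adjusted p = 0.376).

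Slc25a28, mitoferrin-2, imports iron in many tissues. It read 8.06, 8.06 and 7.95 in CTL, 8.16, 8.19 and 8.10 in IDH1wt, and 8.51, 8.34 and 8.35 in IDH1mut. The groups were separated in the same order as for mitoferrin-1, over a smaller range. It rose by 0.38 ± 0.09 over CTL (adjusted p = 0.0117, limma), and leaving out CTL replicate 3 ended this call (adjusted p = 0.0519). Over IDH1wt its difference was 0.25 ± 0.09 (adjusted p = 0.0927).

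Slc25a38, listed with the amino acid carriers, brings glycine into the matrix for the first step of heme synthesis. It read 7.64, 7.65 and 7.47 in CTL, 7.58, 7.76 and 7.57 in IDH1wt, and 8.33, 8.30 and 8.16 in IDH1mut. The IDH1mut arrays stood above all others, and CTL and IDH1wt overlapped. It rose by 0.68 ± 0.10 over CTL (adjusted p = 0.000798, limma) and by 0.63 ± 0.10 over IDH1wt (adjusted p = 0.0023). Slc25a39, a glutathione importer that has also been tied to heme synthesis, read 7.28, 7.16 and 7.25 in CTL, 7.37, 7.31 and 7.30 in IDH1wt, and 7.27, 7.0 and 6.96 in IDH1mut. It did not pass against CTL (-0.15 ± 0.10; adjusted p = 0.34).

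Most red cell markers, like the iron and glycine importers, were higher in IDH1mut than in CTL. Of 17 measured genes of the erythroid list, 15 rose and 0 fell in IDH1mut against CTL, where 10.1% of all genes rose. The median change was 1.296, and Hba-a1 (-0.03) and Sptb (-0.26) did not pass. The probe set of Hba-a1 read low (mean 3.30 over 9 arrays, below the median gene at 4.94). Whether it reads the main transcript was not tested. In IDH1wt against CTL 1 rose (Tal1), with 15 differences above 0 and a median of 0.56. Against IDH1wt 2 rose in IDH1mut (Trim10 and Nfe2), where 6.54% of all genes did. There 16 differences lay above 0, with a median of 0.75. The arrays of 9 were fully separated in that comparison, where 29.5% of all genes were. The mean level of the 17 ranged from 6.98 to 7.03 on CTL arrays and from 6.75 to 8.03 on IDH1wt arrays. On IDH1mut arrays it ranged from 8.02 to 8.27, and 1 or 2 of the 17 lay below the array's median. The list's median deviation from its mean over all arrays was -0.96, 0.57 and 0.03 on IDH1wt replicates 1, 2 and 3. IDH1wt replicate 2 was thus level with IDH1mut replicate 1 (0.53) in red cell markers. On these 2 arrays Slc25a37 read 9.15 and 9.41, and Slc25a38 read 7.76 and 8.33. IDH1wt replicate 1 had the lowest list deviation of the 9 arrays, while its Slc25a37 (8.85) and Slc25a28 (8.16) lay above each CTL array. Within IDH1wt, Slc25a37 (8.85, 9.15 and 8.92) followed the order of the list's deviations, and Slc25a28 and Slc25a38 were highest on replicate 2. Within IDH1mut the order of Slc25a37 (9.41, 9.60 and 9.86) differed from that of the list (0.53, 0.86 and 0.65). In bulk RNA a larger share of a cell type and more RNA per cell cannot be told apart, and the part of cell composition in the carriers' changes was not tested. The other marker lists are given for IDH1mut against CTL, where 10.1% of all genes rose and 10.6% fell. Late neutrophil markers rose in 8 of 12 measured genes, and primary granule markers fell in 9 of 9. Of the monocyte markers 3 of 7 fell (Cd14, Irf8 and F13a1). Against IDH1wt 5 of the 7 fell, where 6.78% of all genes did. Against CTL, 2 of 7 B cell markers (Vpreb1 and Igll1) and 2 of 6 T and NK cell markers (Cd3g and Cd3d) rose. So did 3 of 5 leukocyte genes (Csf3r, Itgam and Lyz2), and 1 of 6 megakaryocyte and platelet markers fell (Itga2b).

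**Figure D2:**
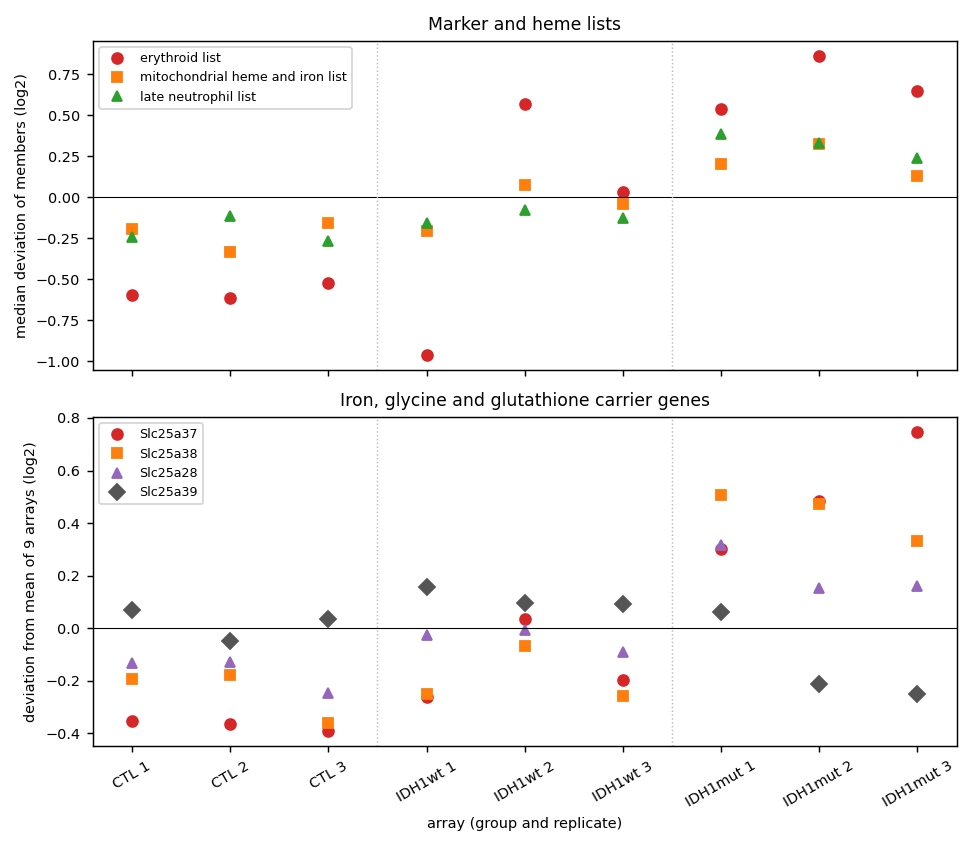
Upper panel, median deviation (log2) of the erythroid, mitochondrial heme and iron, and late neutrophil lists on each of the 9 arrays; lower panel, deviation of 4 carriers from their own mean over the 9 arrays. Slc25a37, Slc25a38 and Slc25a28 are highest on the 3 IDH1mut arrays and Slc25a39 is not, while the erythroid list is also high on IDH1wt replicate 2 (0.57).

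Of 14 measured genes of the mitochondrial heme and iron list, 9 changed in IDH1mut against CTL, 8 up and 1 down. Of all genes 20.7% changed, 10.1% up and 10.6% down. The list's median change was 0.47. Alas2, the red cell enzyme that joins glycine to succinyl-CoA and also a gene of the erythroid list, rose by 1.36 ± 0.29 (adjusted p = 0.00625, limma). Ppox, which acts late in the same pathway, rose by 0.88 ± 0.10 (adjusted p = 0.000165). Cpox, the enzyme before Ppox, rose by 0.84 ± 0.23, a call that ended without any 1 of 4 arrays (largest adjusted p 0.0804, CTL replicate 2 left out). Alas1, the form used in most tissues, fell by 0.40 (± 0.09; adjusted p = 0.00758). The count was 4 without CTL replicate 2 and 5 without IDH1mut replicate 2. Of the 14, 0 changed in IDH1wt against CTL, where 9 lay above 0 and the median change was 0.15. Against IDH1wt, Ppox rose and Alas1 fell in IDH1mut, and 12 did neither (13.3% of all genes changed).

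Slc25a33 carries pyrimidine nucleotides for mitochondrial DNA and RNA. It read 6.40, 6.28 and 6.26 in CTL, 6.12, 6.16 and 6.14 in IDH1wt, and 7.32, 7.09 and 6.60 in IDH1mut. IDH1mut arrays were the highest and the most spread (SD 0.37, against 0.07 in CTL), and IDH1wt arrays the lowest. It rose by 0.69 ± 0.15 over CTL (adjusted p = 0.00774, limma) and 1.82-fold over IDH1wt (0.86 ± 0.15; adjusted p = 0.004). Its relative Slc25a36 did not pass (0.17 ± 0.11; adjusted p = 0.331).

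Slc25a40, like Slc25a39, brings glutathione into the matrix. It read 5.89, 5.76 and 6.02 in CTL, 6.21, 6.08 and 6.14 in IDH1wt, and 6.22, 6.20 and 6.65 in IDH1mut. Both IDH1 groups lay above CTL and overlapped each other. It rose by 0.47 ± 0.13 in IDH1mut over CTL (adjusted p = 0.0245, limma), which was lost on leaving out CTL replicate 1 (adjusted p = 0.0722), CTL replicate 2 (0.0865) or IDH1mut replicate 3 (0.0737).

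Slc25a17 carries coenzyme A and related cofactors across the peroxisomal membrane. It read 7.95, 7.81 and 7.98 in CTL, 7.78, 7.47 and 7.84 in IDH1wt, and 7.52, 7.57 and 7.38 in IDH1mut. IDH1mut lay below CTL, and IDH1wt overlapped both. It fell by 0.42 (± 0.11; adjusted p = 0.0215, limma), which was lost on leaving out CTL replicate 1 (adjusted p = 0.0771), CTL replicate 3 (0.0756) or IDH1mut replicate 3 (0.078). The other 7 carriers of this role did not pass. Among them the NAD+ carrier Slc25a51 was at 0.39 ± 0.15 (adjusted p = 0.0899) and the S-adenosylmethionine carrier Slc25a26 at -0.38 ± 0.14 (adjusted p = 0.0736). Slc25a16 and Slc25a42, tied to coenzyme A, and the folate carrier Slc25a32 were at 0.11, 0.01 and 0.01.

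**Figure D3:**
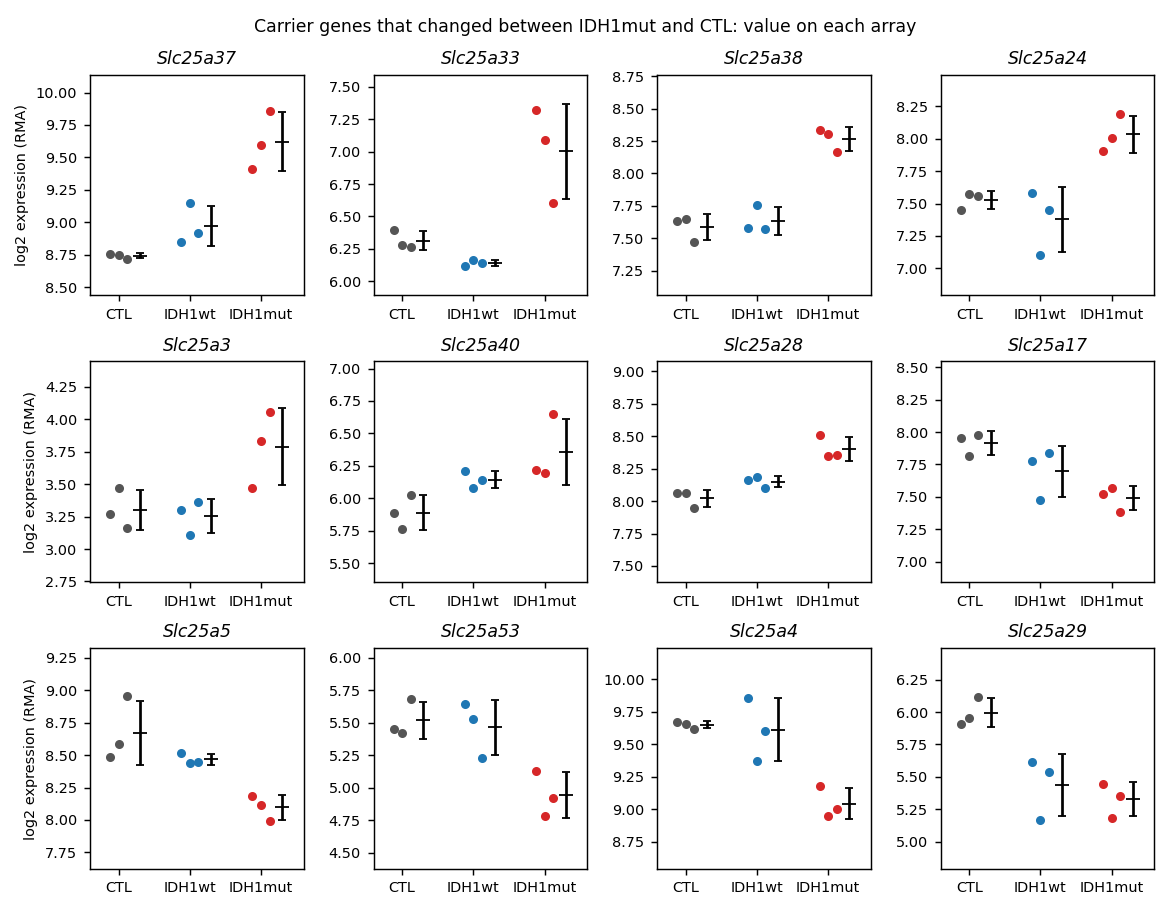
Log2 expression (y axis) of the 12 carriers that changed between IDH1mut and CTL; points are arrays, and black marks are the group mean ± SD (n = 3). For Slc25a38 the IDH1mut arrays (8.16 to 8.33) lie above the other 6, and for Slc25a4 (8.95 to 9.18) below them.

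Of the 8 adenine nucleotide and phosphate carriers, 2 rose and 2 fell in IDH1mut against CTL. Slc25a4 and Slc25a5 encode the ADP/ATP carriers ANT1 and ANT2, which export the ATP made by respiration. Slc25a4 read 9.67, 9.66 and 9.62 in CTL, 9.86, 9.37 and 9.60 in IDH1wt, and 9.18, 8.95 and 9.0 in IDH1mut. All 3 IDH1mut arrays were below the other 6. It fell by 0.61 (± 0.12; adjusted p = 0.00493, limma) against CTL and by 0.57 (± 0.12; adjusted p = 0.011) against IDH1wt.

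Slc25a5 read 8.48, 8.58 and 8.95 in CTL, 8.52, 8.44 and 8.45 in IDH1wt, and 8.19, 8.12 and 7.99 in IDH1mut. The IDH1mut arrays were again the lowest, and CTL replicate 3 was the highest. It fell by 0.57 (± 0.12; adjusted p = 0.0066, limma) against CTL; against IDH1wt the difference was -0.37 ± 0.12 (adjusted p = 0.0709). The name of its probe set ends in _x_at, which marks probes that can bind other transcripts, so signal from close copies is uncertain. Slc25a31, the form known from testis, averaged 2.24 ± 0.23 in CTL (SD, n = 3) and did not pass.

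Slc25a24 exchanges ATP-Mg for phosphate and is regulated by calcium. It read 7.45, 7.57 and 7.56 in CTL, 7.58, 7.10 and 7.45 in IDH1wt, and 7.91, 8.01 and 8.19 in IDH1mut. The IDH1mut arrays were above all others. It rose by 0.51 ± 0.13 over CTL (adjusted p = 0.0162, limma), which was lost on leaving out CTL replicate 1 (adjusted p = 0.0654) or IDH1mut replicate 3 (0.0661), and by 0.66 ± 0.13 over IDH1wt (adjusted p = 0.00713). Its relatives Slc25a25, Slc25a23 and Slc25a41 were at -0.22, 0.01 and -0.13 against CTL and did not pass.

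Slc25a3 is the carrier that supplies phosphate to ATP synthase. It read 3.27, 3.47 and 3.16 in CTL, 3.30, 3.11 and 3.36 in IDH1wt, and 3.47, 3.83 and 4.06 in IDH1mut. These levels are below that of the median gene (4.94), and whether this probe set reads the main transcript was not tested. The rise of 0.49 ± 0.15 over CTL (adjusted p = 0.0363, limma) was lost on leaving out CTL replicate 1 (adjusted p = 0.101), CTL replicate 3 (0.126), IDH1mut replicate 2 (0.0944) or IDH1mut replicate 3 (0.134). The rise of 0.53 ± 0.15 over IDH1wt (adjusted p = 0.0356) was lost without any 1 of 6 arrays (largest adjusted p 0.119, IDH1mut replicate 3 left out).

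Of the 10 amino acid and carnitine carriers, Slc25a38 rose and Slc25a29 fell in IDH1mut against CTL. Slc25a29 carries arginine, lysine and other basic amino acids. It read 5.91, 5.95 and 6.12 in CTL, 5.61, 5.16 and 5.54 in IDH1wt, and 5.44, 5.18 and 5.35 in IDH1mut. Both IDH1 groups lay below CTL and overlapped each other. It fell by 0.67 (± 0.13; adjusted p = 0.00399, limma) in IDH1mut against CTL. The difference between IDH1wt and CTL was -0.56 ± 0.13 (adjusted p = 0.0504), and it passed on leaving out IDH1wt replicate 1 (adjusted p = 0.0353). Between the IDH1 groups the difference was -0.11 ± 0.13 (adjusted p = 0.648).

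Slc25a12 and Slc25a13 exchange aspartate for glutamate in the malate-aspartate shuttle. Slc25a13 read 6.99, 7.20 and 7.15 in CTL, 7.39, 7.08 and 7.24 in IDH1wt, and 6.94, 6.68 and 6.87 in IDH1mut, with the IDH1mut arrays the lowest. It fell by 0.40 (± 0.11; adjusted p = 0.037, limma) against IDH1wt, a call that ended without any 1 of 5 arrays (largest adjusted p 0.132, IDH1mut replicate 2 left out). Against CTL it did not pass (-0.28 ± 0.11; adjusted p = 0.106). Slc25a12 was at 0.22 ± 0.11 in IDH1mut and 0.26 ± 0.11 in IDH1wt against CTL, with adjusted p of 0.186 and 0.268. The carnitine-acylcarnitine carrier Slc25a20, the glutamate carrier Slc25a22 and the ornithine carrier Slc25a15 were at -0.02, -0.11 and -0.04 in IDH1mut against CTL and did not pass.

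None of the 4 carboxylate and pyruvate carriers changed in IDH1mut or IDH1wt against CTL. The citrate carrier Slc25a1 read 7.69, 7.78 and 7.70 in CTL, 7.83, 7.85 and 8.005 in IDH1wt, and 7.67, 7.59 and 7.52 in IDH1mut. IDH1wt arrays were the highest and IDH1mut arrays the lowest, with CTL between them. It fell by 0.31 (± 0.09; adjusted p = 0.0473, limma) in IDH1mut against IDH1wt, and leaving out any 1 of the 9 arrays ended this call (largest adjusted p 0.163, IDH1wt replicate 3 left out). Slc25a11, which exchanges 2-oxoglutarate for malate, was at 0.11 ± 0.10 in IDH1mut against CTL (adjusted p = 0.518), and the dicarboxylate carrier Slc25a10 at -0.22 ± 0.09 (adjusted p = 0.114). Mpc1, a subunit of the mitochondrial pyruvate carrier, was at -0.19 ± 0.12 in IDH1mut and -0.28 ± 0.12 in IDH1wt (adjusted p = 0.29 and 0.249).

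Of the 10 carriers of unassigned or disputed substrate and outer membrane homologs, Slc25a53 changed. It read 5.46, 5.42 and 5.68 in CTL, 5.64, 5.53 and 5.23 in IDH1wt, and 5.13, 4.78 and 4.92 in IDH1mut. The IDH1mut arrays lay below the rest. It fell by 0.57 (± 0.13; adjusted p = 0.0104, limma) against CTL. The fall of 0.52 against IDH1wt (± 0.13; adjusted p = 0.0252) was lost on leaving out IDH1wt replicate 1 (adjusted p = 0.0866), IDH1wt replicate 2 (0.0669), IDH1mut replicate 2 (0.0932) or IDH1mut replicate 3 (0.0698). Slc25a45 was at 0.33 ± 0.11 against CTL (adjusted p = 0.0538). Slc25a46, an outer membrane protein tied to mitochondrial shape, was at 0.09 ± 0.09, and Mtch1 at -0.09 ± 0.09.

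The 3 carriers related to uncoupling proteins did not change against CTL. Slc25a30 read 3.26, 3.72 and 3.36 in CTL, 3.69, 3.86 and 3.69 in IDH1wt, and 3.48, 3.0 and 3.17 in IDH1mut, all below the median gene. IDH1mut lay below IDH1wt and overlapped CTL. It fell by 0.53 (± 0.15; adjusted p = 0.0336, limma) against IDH1wt, a call that ended without any 1 of 5 arrays (largest adjusted p 0.12, IDH1mut replicate 2 left out). Slc25a14 and Slc25a27 were at 0.16 and -0.19 against CTL. Of the uncoupling proteins, Ucp1 (0.12) and Ucp3 (0.05) were measured and did not pass.

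Genes that bring carriers into the inner membrane fell in part in IDH1mut. Carriers are made in the cytosol, cross the outer membrane through Tomm40, are escorted by small Timm proteins and are inserted by a complex with Timm22, Timm29 and Agk. Of these 13 genes 6 fell and 0 rose in IDH1mut against CTL, where 10.6% of all genes fell and 10.1% rose. Their median change was -0.33, against -0.04 for all genes. Agk read 4.51, 4.40 and 4.35 in CTL, 4.23, 4.13 and 4.23 in IDH1wt, and 4.05, 3.74 and 3.78 in IDH1mut, all below the median gene (4.94). It fell by 0.56 (± 0.10; adjusted p = 0.00321, limma), and Timm8a1 fell by 0.43 (± 0.10; adjusted p = 0.00804). Timm22 (-0.38 ± 0.11), Tomm20 (-0.36 ± 0.10), Timm10 (-0.33 ± 0.09) and Tomm40 (-0.27 ± 0.08) fell as well, and each of these 4 calls ended on leaving out single arrays (largest adjusted p 0.117, 0.111, 0.0904 and 0.123). The count was 2 on leaving out replicate 1 or 3 of CTL or replicate 3 of IDH1mut, and 3 without CTL replicate 2. In IDH1wt against CTL 0 of the 13 changed, with a median change of -0.12. The arrays of 5 were fully separated there, where 23.6% of all genes were. Timm8b was at -0.43 in IDH1wt and -0.34 in IDH1mut against CTL, and neither passed. Against IDH1wt, Tomm40 and Timm8a1 fell in IDH1mut (adjusted p = 0.0248 and 0.0498, limma).

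**Figure D4:**
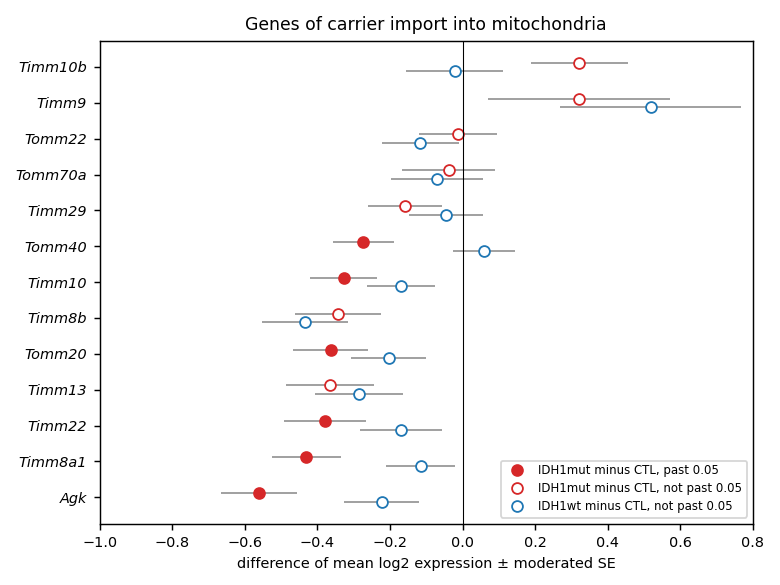
Change in log2 expression ± SE (x axis) of the 13 genes of carrier import, IDH1mut minus CTL in red and IDH1wt minus CTL in blue; filled points have an adjusted p under 0.05. The 6 filled points lie between -0.56 (Agk) and -0.27 (Tomm40).

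Of 14 measured genes of the citrate and malate-aspartate list, 1 rose and 1 fell in IDH1mut against CTL, where 20.7% of all genes changed. Idh2, the mitochondrial isocitrate dehydrogenase, fell by 0.66 (± 0.10; adjusted p = 0.000727, limma). Got1, a cytosolic transaminase of the shuttle, rose by 0.44 ± 0.11 (adjusted p = 0.0117), which was lost on leaving out CTL replicate 1 (adjusted p = 0.0506). The count was 1 without that array and 4 without CTL replicate 2. Of 12 genes of pyruvate and fatty acid entry 1 changed, Pdk3, an inhibitor of pyruvate dehydrogenase (0.31 ± 0.08), and the call ended without any 1 of 5 arrays (largest adjusted p 0.0768, IDH1mut replicate 2 left out). Of 6 measured genes of the calcium uniporter list, Letm1 (-0.45 ± 0.12, mean level 3.97, below the median gene) and Smdt1 (-0.34 ± 0.10) fell. That count was 0 without CTL replicate 1 or 2 or IDH1mut replicate 2 or 3, and 1 without CTL replicate 3. Of 3 outer membrane channels 0 changed.

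Array medians lay between 4.65 and 4.72 across the series. The leukocyte genes Ptprc, Itgam, Spi1, Lyz2 and Csf3r were above the array median on all 9 arrays. Mouse Idh1 was at -0.03 ± 0.11 in IDH1mut against CTL, and whether its probe set reads the inserted sequence was not tested. Of the 47 carriers, 14 had a mean below the median gene; RMA values come without a detection call, so expression at that level is uncertain.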

How the data were processed

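The authors deposited log2 expression values per probe set, with RMA (background correction, quantile normalization and summary of probes) named per the submitters' processing notes; no version is stated there, and the log2 scale was read from the values (1.72 to 14.2). Of 20877 probe sets, 17815 had 1 symbol in the platform annotation of 2016; the 244 with several and the 2818 with none were left out. A gene kept its brightest probe set by the mean of 9 arrays. Group means were fitted with limma 3.58.1 (R 4.3.3) and moderated variances; 3 contrasts were tested. The scripts were tested on simulated data. Members, lists and alternatives were chosen with earlier results of these data known. Full values are given for members changed in at least 1 comparison (15), then up to 3 per role at the highest mean, and up to 3 changed genes per pathway list; further genes were named after their values were seen. Deviations of arrays with the same replicate number correlated between -0.0857 and 0.0257, and those with different numbers between -0.0751 and 0.0843. No shared effect of the number was seen, but 3 arrays a group cannot exclude a shared mouse or day. The number of arrays limits the precision.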

Additional observations from a re-analysis of the deposited data

How the results depend on the processing

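Each member that changed was run under 19 alternatives (10 of processing, 9 leaving out an array). It was 18 for Slc25a3 and Slc25a30, which are not among the brighter genes. None reversed a direction, but nearly all of them could not have done so. The arrays of each call were fully separated, so leaving out or weighting arrays keeps its sign. Most other alternatives keep the same group means. Only a second quantile normalization or centring arrays on their medians could have reversed a sign. In IDH1mut against CTL the count of 12 carriers was 2 when a fold of at least 1.2 was tested for (Slc25a37 and Slc25a38), 8 to 14 on leaving out arrays, and 11 to 13 otherwise. In IDH1wt against CTL the count of 0 was 1 (Slc25a29) with all probe sets tested one by one, brighter genes only, a second quantile normalization, an intensity trend with robust variances, or the replicate block. It was 2 (Slc25a29 and Slc25a47) with array weights, and 0 to 1 on leaving out arrays. In IDH1mut against IDH1wt the count of 10 was 6 with the replicate block, 1 with the 1.2-fold test (Slc25a33), 5 to 10 on leaving out arrays, and 7 to 12 otherwise. With the block, 11 carriers changed in IDH1mut against CTL. Whether the numbers pair the samples is not known, so whether a call lost there is a weaker effect cannot be judged.

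Of all genes, 3663 changed in IDH1mut against CTL, 2370 if CTL replicate 1 was left out and 1025 with the 1.2-fold test. In IDH1wt against CTL 414 changed. Leaving out CTL replicate 1 gave 132, CTL replicate 3 145, IDH1wt replicate 2 211 and IDH1wt replicate 3 145; the trend gave 717, array weights 1226 and the 1.2-fold test 77. In IDH1mut against IDH1wt 2363 changed, 1528 if IDH1mut replicate 2 and 1475 if IDH1wt replicate 3 was left out, and 433 with the 1.2-fold test. The cause was not tested. List counts under the alternatives were added after seeing the data: the 1.2-fold test left 0 import, 3 heme and iron and 8 erythroid genes, and the trend 9 erythroid genes.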

Other observations

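Genes that control the making of mitochondria changed in 6 of 12 members in IDH1mut against CTL, 2 up and 4 down. Of all genes 20.7% changed, 10.1% up and 10.6% down. The list's median change was -0.14. Ppargc1a, a coactivator of mitochondrial genes, read 4.02, 3.78 and 4.29 in CTL, 3.50, 3.27 and 3.67 in IDH1wt, and 2.92, 2.58 and 2.75 in IDH1mut. The groups did not overlap, and all values lay below the median gene. It fell by 1.28 on the log2 scale (± 0.15; adjusted p = 0.000206, limma), its relative Ppargc1b by 0.60 (± 0.13; adjusted p = 0.00666), and the mitochondrial RNA polymerase Polrmt by 0.51 (± 0.09; adjusted p = 0.00222). The count was 3 without CTL replicate 1. Of the 12, 0 changed in IDH1wt against CTL, with a median change of 0.05. The arrays of 6 were fully separated there, where 23.6% of all genes were. Ppargc1a was at -0.55 ± 0.15 in that comparison (adjusted p = 0.0845, limma).

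Of 10 measured genes of the mitochondrial one-carbon and ornithine list, 2 rose and 2 fell in IDH1mut against CTL. Of all genes 10.1% rose and 10.6% fell. Arg2, the mitochondrial arginase, read 7.77, 8.22 and 7.48 in CTL, 8.34, 8.41 and 8.30 in IDH1wt, and 10.08, 9.74 and 9.41 in IDH1mut. It rose 3.79-fold (1.92 ± 0.19; adjusted p = 9.51e-05, limma), with the IDH1mut arrays above all others. Aldh18a1, which makes a precursor of proline and ornithine from glutamate, fell by 0.66 (± 0.13; adjusted p = 0.00468). The count was 2 without any 1 CTL array or IDH1mut replicate 1 or 3.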
